A study of Saccharomyces cerevisiae with 78 samples.

Results

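*RPL2A* (YFR031C-A) and *RPL2B* (YIL018W) were described on every array feature that carries their symbols. These are 6 of the 1536 features of the array, 3 for each gene, and 2 of its 982 named genes. The array is a splicing-sensitive 2-colour microarray. It was hybridized with RNA of *Saccharomyces cerevisiae* strains that each lack the intron of 1 ribosomal protein gene, and every value is a log2 ratio of the mutant over wild type of the same parentage. By their labels, the 78 arrays of 17 strains make up 39 replicates of 2 dye-swapped arrays each. The mutant RNA carries Cy3 on the first and Cy5 on the second. The strain rpl2aDi lacks the intron of *RPL2A* (2 replicates, 4 arrays) and rpl2bDi lacks that of *RPL2B* (3 replicates, 6 arrays). The arrays of rpl2aDi replicate 1 lie on different slides, unlike those of the other replicates. Whether they carry the same RNA is not stated, and they are taken here as 1 replicate.

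The other 15 strains lack the intron of another ribosomal protein gene. Strains rpl23aDi, rpl34aDi, rpl35aDi, rpl40bDi, rps8aDi, rps9bDi, rps14aDi and rps14bDi have 3 replicates each, rpl16aDi, rps9aDi and rps21bDi have 2, and rpl24aDi, rpl29Di, rpl31aDi and rps23aDi have 1. The strains are haploid and come from the sporulation of a transformed diploid. Per the labels, RNA came from cultures in YEPD, a rich medium with glucose. In each mutant the gene stays at its own locus under its own promoter, with the exons joined precisely. Only rpl2aDi and rpl2bDi alter the genes described here, so *RPL2A* and *RPL2B* are both intact in the other 15. No double mutant of the pair was analysed here.

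*RPL2A* and *RPL2B* are the duplicated copies, left by the whole genome duplication, of the gene for a protein of the large ribosomal subunit. That protein (L2, now called uL2) lies near the peptidyl transferase centre, where peptide bonds are made, and is among the most conserved proteins of the ribosome. Both copies encode the same protein and both carry a single intron near the start of the coding sequence. In yeast such introns are removed by the spliceosome with high efficiency, and for several ribosomal protein genes the intron is a place of regulation by the protein product. A deletion of the intron therefore leaves a gene whose mRNA needs no splicing.

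The gene's intron feature was taken to be its lowest feature in its own deletion strain, so the low value of that feature there is what chose it and is given as a description. The other 2 features of each gene are here called exon (total mRNA) and junction (spliced mRNA). Those names follow the printing layout, in which the exon feature shares a plate with the intron feature and the junction feature lies on another plate. They are not given in the files used here and were not checked by an independent measurement. The copies share most of their coding sequence, so an exon or junction feature of 1 copy may take up RNA of the other. The sequences of the features were not analysed here, and this part was not tested. The 6 features held a value in 2552 of 2808 spots. The *RPL2B* exon feature was measured in 98.3% of its spots and the *RPL2B* junction feature in 78.6%, the lowest of the 6. The spread between replicates of a strain (the SD as moderated by limma) was 0.09 for the *RPL2A* junction, 0.12 for the *RPL2A* exon and 0.16 for the *RPL2B* exon and junction features, against a median of 0.16 over all features. It was 0.17 and 0.30 for the *RPL2A* and *RPL2B* intron features, values that include the spread of the deleted intron in its own strain. Slides were grouped by the leading number of an array's name into 4 batches, called A to D, a reading that the labels do not state.

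The deleted intron was low on every array of its own strain. In rpl2aDi the *RPL2A* intron feature read -2.47 and -2.21 on the arrays of replicate 1 and -1.39 and -1.84 on those of replicate 2. Its mean was -1.98 ± 0.51 (SD, n = 2), 3.94-fold below wild type, and it rested on 15 of 24 spots. In rpl2bDi the *RPL2B* intron feature read -3.43 and -2.87, then -4.44 and -4.17, then -2.86 and -2.32 on the arrays of its 3 replicates. Its mean was -3.35 ± 0.87 (SD, n = 3), 10.2-fold below wild type, from 34 of 36 spots. On the 74 arrays of the other strains the *RPL2A* intron feature ranged from -0.49 to 0.55. On the 70 arrays with more than 1 measured spot the *RPL2B* intron feature ranged from -0.74 to 0.86. The arrays with 1 measured spot, in rpl34aDi and rps9aDi, read -0.07 and 0.87. For neither gene did these values touch the range in its deletion strain. Among the 17 strains, the *RPL2B* intron had the second lowest value of a deleted intron and the *RPL2A* intron the ninth lowest. These depths are not comparable as amounts of RNA, because the intensities behind the ratios were not analysed here and a ratio against an absent RNA measures background. For the other 15 strains the deleted intron was taken as the gene's feature with the mean farthest from 0, which was also its lowest. These were below 0 in both dye orientations in 15 of 15. Since these same values chose them, this was not taken as a test of the direction of the ratios, which is used as deposited.

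The first question was whether loss of the intron changed the mRNA level of the gene that lost it. No difference from wild type was detected for either intronless *RPL2* gene. In rpl2aDi the *RPL2A* exon feature was at 0.22 and 0.04 on the arrays of replicate 1 and at 0.06 and 0.12 on those of replicate 2. All 4 arrays were above 0, and the mean was 0.11 ± 0.03 (SD, n = 2, limma 95% confidence interval -0.06 to 0.29, adjusted p = 0.995). The *RPL2A* junction feature, the measure of its joined exons, was at 0.07 and 0.06 in the replicates and averaged 0.06 ± 0.005 (SD, n = 2, interval -0.06 to 0.19, limma adjusted p = 0.995). Of all features in this strain, 82.8% lay below the *RPL2A* exon value and 70.3% below the junction value, so neither stood at the edge of the distribution.

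In rpl2bDi the *RPL2B* exon feature was at 0.02, -0.02 and -0.03 in the 3 replicates. Their mean of -0.01 ± 0.03 (SD, n = 3, interval -0.20 to 0.18, limma adjusted p = 0.979) hides a wide split between arrays. With the mutant in Cy3 the feature read 0.42, 0.16 and 0.07, and with the mutant in Cy5 it read -0.37, -0.20 and -0.14. The dye orientations did not overlap, and they cancelled in each replicate. The *RPL2B* junction feature was at -0.09, -0.22 and -0.04 and averaged -0.12 ± 0.10 (SD, n = 3, interval -0.31 to 0.08, limma adjusted p = 0.66). Of all features in rpl2bDi, 47.8% lay below the *RPL2B* exon value and 19.1% below the junction value.

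The second question was whether the intact copy responded to an intron deletion in its partner. In rpl2aDi the *RPL2B* exon feature was at 0.14 and 0.02 (mean 0.08 ± 0.08, SD, n = 2, interval -0.15 to 0.31, limma adjusted p = 0.995). The *RPL2B* junction feature was below 0 on all 4 arrays, at -0.02, -0.15, -0.17 and -0.35, and its mean was -0.17 ± 0.12 (SD, n = 2, interval -0.40 to 0.07, limma adjusted p = 0.995). The last 2 arrays, of replicate 2, rested on 2 and 3 spots. Over all strains this feature was below 0 in 32 of 39 replicates, and against the other strains rpl2aDi was at -0.11 (limma adjusted p = 0.905). The *RPL2B* intron feature, which reads the unspliced form, was at 0.12 and 0.08 (mean 0.10 ± 0.03, SD, n = 2, interval -0.34 to 0.54). Exon minus junction was 0.27 and 0.22 for *RPL2B* in this strain, positive in 2 of 2 replicates, and the mean of 0.24 had a limma adjusted p of 0.632.

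In rpl2bDi the *RPL2A* exon feature was at 0.18 in replicate 1 and at -0.01 and -0.03 in the others (mean 0.04 ± 0.12, SD, n = 3, interval -0.10 to 0.19, limma adjusted p = 0.857). The *RPL2A* junction feature averaged -0.02 ± 0.06 (SD, n = 3, interval -0.12 to 0.09, limma adjusted p = 0.938). The *RPL2A* intron feature was below 0 on all 6 arrays, which ranged from -0.18 to -0.06, with a mean of -0.11 ± 0.04 (SD, n = 3, interval -0.31 to 0.09, limma adjusted p = 0.697). The Intron Accumulation Index is the intron value minus the exon value. For *RPL2B* in rpl2aDi it was -0.01 and 0.06 (mean 0.03 ± 0.05, SD, n = 2, limma adjusted p = 0.992). For *RPL2A* in rpl2bDi it was -0.33, -0.06 and -0.08, below 0 in 3 of 3 replicates (mean -0.16 ± 0.15, SD, n = 3, interval -0.43 to 0.11, limma adjusted p = 0.938). That mean was -0.07 without replicate 1 and -0.26 with slide batch as a block.

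**Figure D1:**
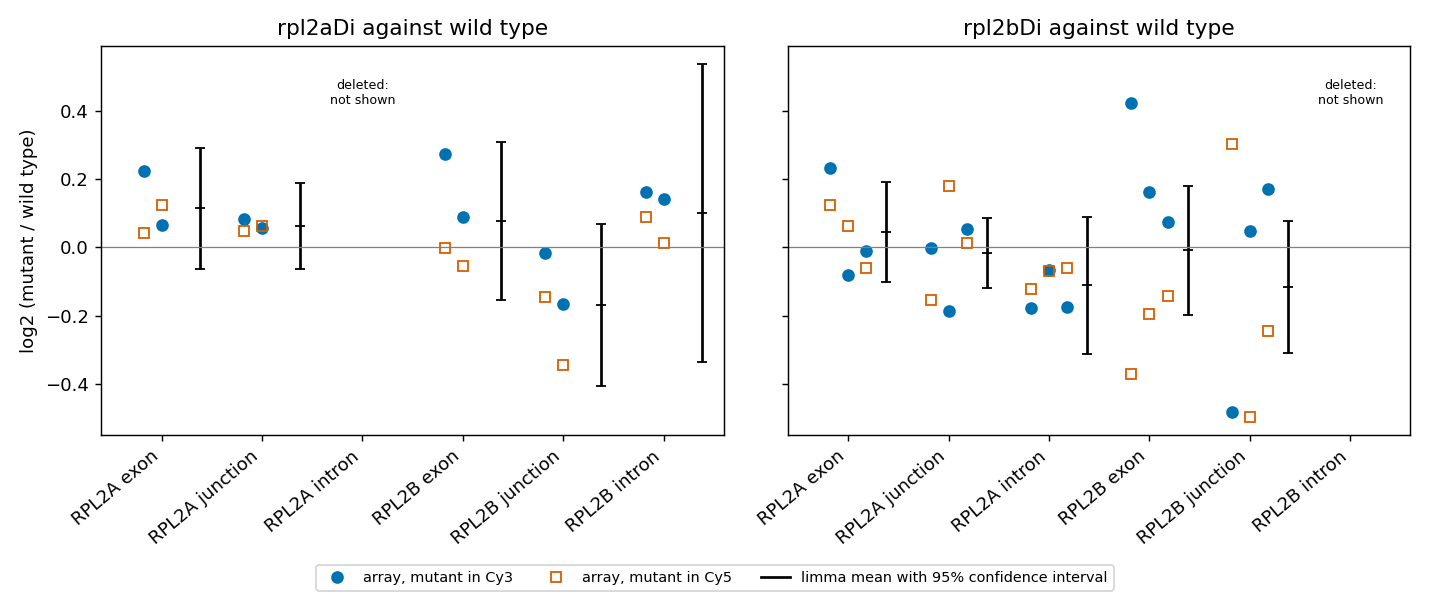
Log2 ratio (mutant over wild type, vertical axis) of the exon, junction and intron features of *RPL2A* and *RPL2B* on each array of rpl2aDi (left) and rpl2bDi (right), with the deleted intron's own feature not shown. Circles have the mutant in Cy3 and squares in Cy5, and black bars are the limma mean with its 95% confidence interval; every interval includes 0, and the *RPL2B* exon arrays of rpl2bDi part by dye (0.42 to 0.07 against -0.37 to -0.14).

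Between the reciprocal deletions no difference was detected at the exon or junction features. The difference rpl2aDi minus rpl2bDi was 0.07 for the *RPL2A* exon (interval -0.16 to 0.30, limma adjusted p = 0.851) and 0.08 for the *RPL2B* exon (interval -0.21 to 0.38, limma adjusted p = 0.862). It was 0.08 for the *RPL2A* junction (interval -0.08 to 0.24) and -0.05 for the *RPL2B* junction (interval -0.36 to 0.25). Limma called 9 of 1536 features in this comparison, or 0.586%, and the *RPL2A* and *RPL2B* intron features are among them by the choice of members. Differences up to the bounds of these intervals could not be told from 0 with 2 and 3 replicates. The paper states that its arrays compress fold changes relative to quantitative PCR. The intervals given here therefore bound array ratios and not the change in mRNA amount.

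Over the whole array rpl2aDi had 1 called feature of 1536 (0.0651%), the *RPL2A* intron itself, and 67 features at an unadjusted p under 0.05. Strain rpl2bDi had 31 (2.02%), 9 up and 22 down, and 218 at an unadjusted p under 0.05. In rpl2bDi the genes that mark yeast mating type moved far more than the exon feature of either *RPL2* gene. Both measured a-specific genes, which encode the a-factor pheromone, fell. *MFA2* was at -4.06 ± 0.37 and *MFA1* at -2.77 ± 0.24 (SD, n = 3 each, limma adjusted p = 0.0115 and 0.00694). All 4 measured alpha-specific genes rose, from 2.64 for *STE3*, the a-factor receptor, to 5.62 for *MF(ALPHA)1*, an alpha-factor gene. In rpl2aDi 0 of these 6 genes were called, and replicate 1 was at -2.27 for *MF(ALPHA)1* against 0.05 in replicate 2. How far the mating type of the segregants plays into the *RPL2* values of rpl2bDi was not tested.

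Other ribosomal protein genes served as the pathway. Of the 171 features of 65 other large subunit genes, 0 were called in rpl2aDi (median 0.07, all features -0.01). In rpl2bDi 2 rose and 2 fell (median -0.04, all features -0.002), which is 2.34% of the 171 against 2.02% of all features. The features that rose belong to *RPL40A* (0.35 ± 0.22), the gene of a ubiquitin fusion with a ribosomal protein, and *RPL13A* (0.36 ± 0.02). Those that fell belong to *RPL28* (-0.24 ± 0.08) and *RPL30* (-0.35 ± 0.01), which encodes a protein that represses its own splicing (SD, n = 3 each). Of the 145 features of 53 small subunit genes, 0 were called in rpl2aDi (median 0.05) and 1 fell in rpl2bDi (median -0.06), a feature of *RPS23B* at -0.27 ± 0.06 (SD, n = 3, limma adjusted p = 0.0391). That is 0.69% of the 145 features, against the same 2.02%, so neither list had a share of calls far above that of the array. Without any 1 of the 3 replicates of rpl2bDi, limma called 1 feature in total, so these calls were not kept with 2 replicates. Whether this came from the smaller number or from the replicates themselves was not tested.

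**Figure D2:**
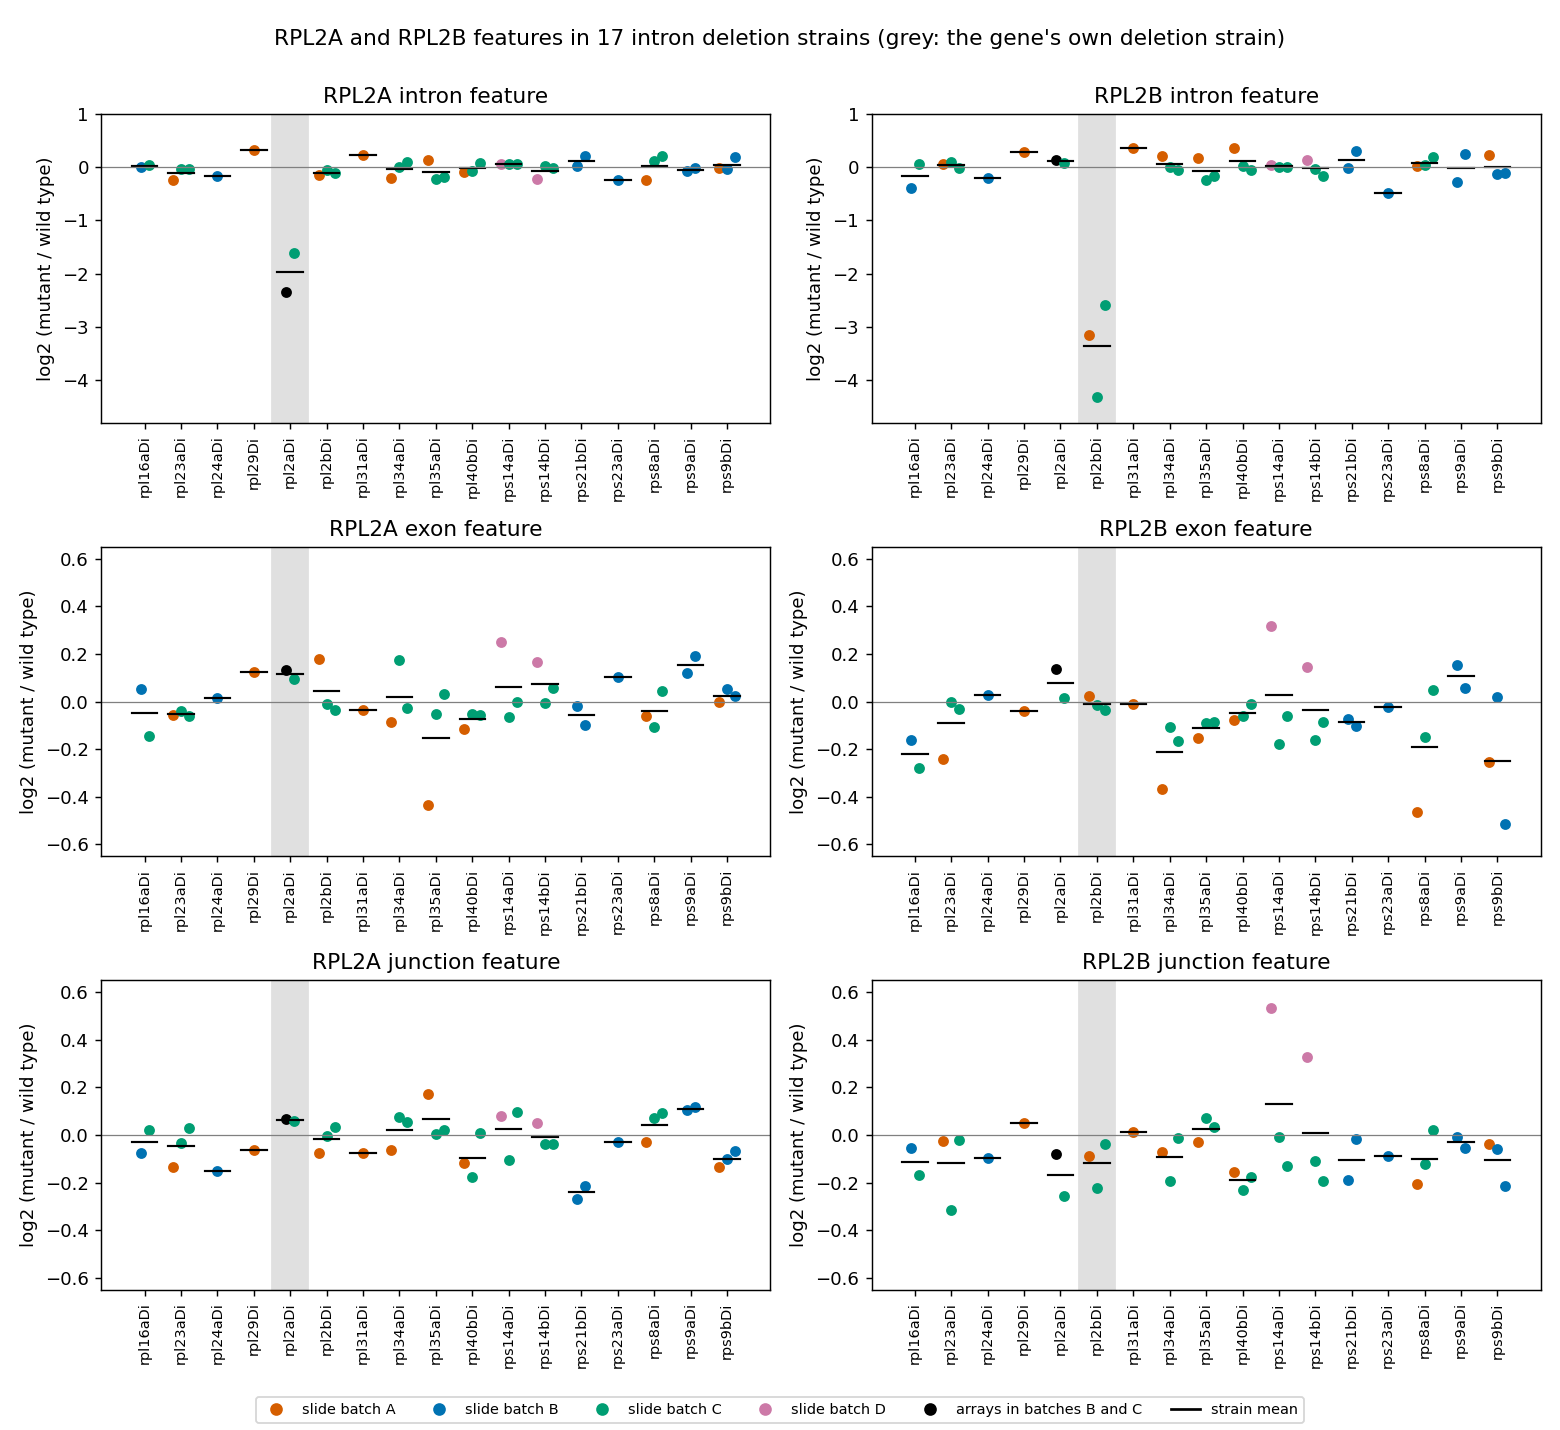
Log2 ratio (mutant over wild type, vertical axis) of the 6 *RPL2A* and *RPL2B* features in 17 strains, with points for replicates, coloured by slide batch, and lines for strain means; grey marks the gene's own deletion strain, and the intron panels have a wider axis than the others. Apart from the deleted introns, the strain means lie between -0.49 and 0.35, and the 2 replicates in slide batch D are the highest for the *RPL2B* junction (0.53 and 0.33).

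Across the 17 strains, 100 combinations of feature and strain remained once the deleted introns were set aside, and limma called 0 of them. Over all features and strains 1.08% were called. At an unadjusted p under 0.05 there were 5 of 100, against 9.59% over all features and strains. The spread of the intron features in this fit includes that of the deleted introns. With the deleted introns left out of the fit, an alternative added after the data were seen, there were 7 of 100, and 0 were called. In 95 of the 100 the mean lay within 0.25 of 0. For the 4 exon and junction features each strain was also set against the mean of the other strains, and 0 of 68 were called (0.607% over all features), with 4 at an unadjusted p under 0.05.

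The *RPL2A* exon feature ranged over strains from -0.15 in rpl35aDi through a median of 0.02 to 0.16 in rps9aDi, and only rps9aDi and rpl29Di lay above its own deletion strain. The largest step between neighbours in this order was 0.08, less than the spread between replicates (0.12), so no neighbours in the order can be told apart. The lowest strain owed its place to replicate 1, at -0.44 from its single measured array, while replicates 2 and 3 were at -0.05 and 0.03 (limma adjusted p = 0.42). In rps9aDi both replicates were above 0, at 0.12 and 0.19 (limma adjusted p = 0.599).

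The *RPL2B* exon feature ranged from -0.25 in rps9bDi through a median of -0.04 to 0.11 in rps9aDi, and 29 of 39 replicates were below 0. The largest step between neighbouring strains was again 0.08, below the replicate spread of 0.16. In rps9bDi, which lacks the intron of a small subunit gene, the replicates spread from -0.51 and -0.25 to 0.02 (mean -0.25 ± 0.27, SD, n = 3, limma adjusted p = 0.593). With the mutant in Cy5 only, the mean in rps9bDi was -0.46 and passed the threshold (limma adjusted p = 0.0396), while with the mutant in Cy3 only it was -0.04 (limma adjusted p = 0.915). A fit that took the slide batches as a block gave -0.14. In rpl34aDi all 3 replicates were below 0, at -0.37, -0.11 and -0.17 (limma adjusted p = 0.226), and in rps8aDi the replicates were at -0.46, -0.15 and 0.05 (limma adjusted p = 0.82). Replicate 1 of rpl34aDi and of rps8aDi, the lowest of each, lies on slides of batch A.

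The smallest p among the 100 belonged to the *RPL2A* junction feature in rps21bDi, the strain without the intron of the small subunit gene *RPS21B*. It read -0.27 and -0.26 on the arrays of replicate 1 and -0.17 and -0.26 on those of replicate 2. All 4 arrays were below 0, the mean was -0.24 ± 0.04 (SD, n = 2), and the limma p was 0.000616 before and 0.135 after adjustment. Over the 17 strains the feature otherwise lay between -0.15 in rpl24aDi and 0.11 in rps9aDi. The *RPL2A* exon feature in rps21bDi was at -0.02 and -0.10 and the intron feature at 0.01 and 0.21, so intron minus junction was 0.28 and 0.42 there. Their mean of 0.35 had a limma adjusted p of 0.51, and of 0.0942 with the deleted introns left out of the fit, an alternative chosen after seeing the data that removes their spread from the shared error. The *RPL2B* junction feature in the same strain was at -0.19 and -0.02 (mean -0.10).

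The *RPL2B* junction feature was below 0 in 12 of 17 strains and in 32 of 39 replicates, from -0.19 in rpl40bDi to 0.13 in rps14aDi. In rpl40bDi its 3 replicates were close, at -0.16, -0.23 and -0.17 (mean -0.19 ± 0.04, SD, n = 3, limma adjusted p = 0.286). The largest step between neighbouring strains was 0.08. The top place of rps14aDi came from replicate 1 at 0.53, with replicates 2 and 3 at -0.01 and -0.13. Strain rps14bDi had the same layout, with 0.33 in replicate 1 and -0.11 and -0.20 in the others. Those first replicates are the 2 on slides of batch D. Of all features of the same replicate, 94.5% and 86.9% lay below the *RPL2B* junction value. The *RPL2B* exon feature was at 0.32 and 0.15 in them, above 85.3% and 70% of features, and the *RPL2A* exon feature at 0.25 and 0.17, above 80.6% and 72.7%. Batch D holds these 2 replicates only.

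The intron features were next examined in the 16 strains in which the gene itself keeps its intron. The *RPL2A* intron feature ranged from -0.25 in rps23aDi to 0.31 in rpl29Di and the *RPL2B* intron feature from -0.49 in rps23aDi to 0.35 in rpl31aDi. The extremes were all strains with a single replicate, for which limma takes the spread of the others, and 0 were called. In those 4 strains the introns of both genes lay on the same side of 0. In rpl29Di the *RPL2A* and *RPL2B* introns were at 0.31 and 0.29, in rpl31aDi at 0.22 and 0.35, in rpl24aDi at -0.18 and -0.22 and in rps23aDi at -0.25 and -0.49. Both strains with high values lie in slide batch A and both with low values in batch B. The *RPL2B* intron averaged 0.21 over batch A, where 0 of 8 replicates were below 0, and -0.12 over batch B, where 7 of 9 were. The *RPL2A* intron did not part in this way, at -0.03 over batch A (6 of 9 below 0) and -0.02 over batch B (5 of 9). Strain and batch cannot be told apart in strains with 1 replicate. Elsewhere the signs could differ, as in rpl40bDi (-0.03 and 0.10), rpl23aDi (-0.11 and 0.04) and rpl16aDi (0.02 and -0.17). Over the 15 strains with both genes intact, Pearson's r between the strain means of the 2 intron features was 0.84 and Spearman's rho 0.74, with the same sign in 10 of 15. Over the 34 replicates r was 0.41. These points share arrays, wild-type RNA and normalization, so the correlation is a description.

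The same movement was present in other ribosomal protein introns. The intron feature of 15 other genes is known from their own deletion strains, and in each strain the median of those whose intron is intact was taken. That median was 0.29 in rpl29Di (13 of 14 introns above 0), 0.27 in rpl31aDi (14 of 14), -0.05 in rpl24aDi (5 of 14) and -0.26 in rps23aDi (1 of 14). The *RPL2B* intron followed it with r = 0.97 and rho = 0.96 over 15 strains, 0.95 without rps23aDi and rpl29Di, the 2 strains farthest from the middle, and 0.94 over the 11 strains with more than 1 replicate. For the *RPL2A* intron r was 0.80 and rho 0.64 over 15 strains, 0.60 without the same 2 strains and 0.12 over the 11 replicated strains, so its relation rests on the strains with a single replicate. The exon and junction features of both genes had values of r between -0.19 and 0.20 with that median over 15 strains. Over the 11 replicated strains their values lay between -0.35 and 0.12. In rpl2aDi, where the median of 15 other introns was 0.16 (14 of 15 above 0), the intact *RPL2B* intron was at 0.10. In rpl2bDi, where that median was -0.02 (5 of 15 above 0), the intact *RPL2A* intron was at -0.11.

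**Figure D3:**
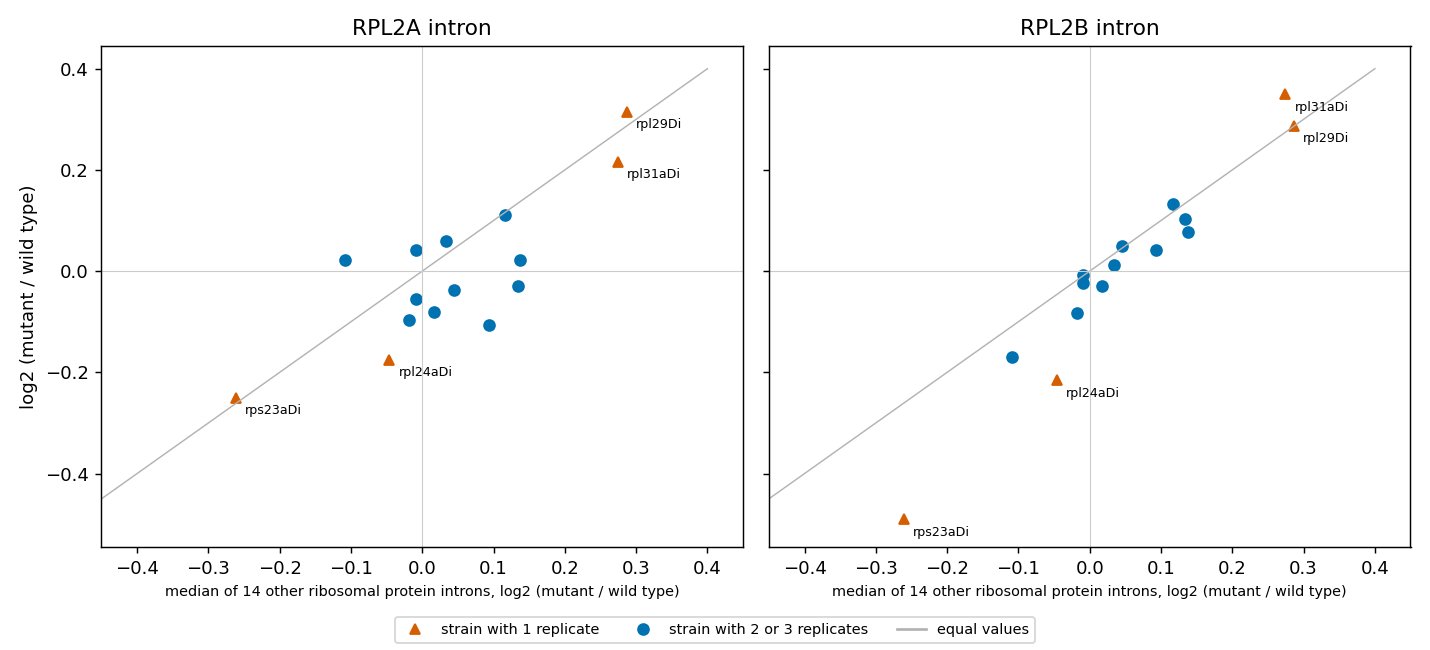
Log2 ratio (mutant over wild type) of the *RPL2A* (left) and *RPL2B* (right) intron features on the vertical axis against the median of 14 other ribosomal protein introns in the same strain on the horizontal axis, for the 15 strains in which both *RPL2* genes are intact. Triangles are strains with 1 replicate, circles strains with 2 or 3, and the line marks equal values; the *RPL2B* points rise along it (r = 0.97), while the *RPL2A* points with more than 1 replicate scatter (r = 0.12).

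Differences between the features of a gene were tested in the same way. Of 98 combinations of feature difference and strain without a deleted intron, limma called 0, against 0.72% over the 724 differences of all genes in 17 strains, and 4 had an unadjusted p under 0.05. Beside those of rps21bDi and rpl2aDi above, these were intron minus junction of *RPL2A* in rpl29Di (0.38, n = 1, limma adjusted p = 0.604) and exon minus junction of *RPL2A* in rpl35aDi (-0.22 ± 0.34, SD, n = 3, limma adjusted p = 0.455). The latter was -0.61 in replicate 1, whose exon value comes from a single array. With the deleted introns left out of the fit, 7 of the 98 had an unadjusted p under 0.05, and 0 were called.

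Because the *RPL2B* exon feature parted by dye in rpl2bDi, the dye orientations were compared in every replicate, as an analysis added after the values were seen. The array with the mutant in Cy3 deviated from its replicate mean by 0.11 ± 0.02 (SE, n = 39) for the *RPL2B* exon and was the higher in 33 of 39 replicates (limma adjusted p = 9.75e-06). Such a difference was common, with 1052 of 1536 features called (68.5%) and a median size of 0.10, and that of the *RPL2B* exon ranked 731 in size. The *RPL2A* intron feature had a smaller one (0.05 ± 0.02, SE, limma adjusted p = 0.0338), and the other 4 features were not called. Some of these means over all replicates conceal a split by slide batch, though the *RPL2A* junction had batch means of only -0.04 to 0.02. The *RPL2A* intron averaged 0.18 in batch A (Cy3 higher in 8 of 9 replicates) and -0.03 in batch B (3 of 9). The *RPL2B* junction feature was higher in Cy5 in 8 of 9 replicates of batch A, 9 of 9 of batch B and 2 of 2 of batch D, and higher in Cy3 in 18 of 18 of batch C, with batch means of -0.21, -0.14, -0.17 and 0.18. The *RPL2B* intron feature spread from -0.69 to 0.27 in batch A and from -0.35 to 0.62 in batch B. In rpl35aDi replicate 1, for example, its arrays read -0.52 with the mutant in Cy3 and 0.86 in Cy5. The 0.62 of batch B, in rps9aDi replicate 2, includes an array with 1 measured spot. The mean of both orientations removes an equal and opposite dye difference. The replicate values are such means, except the *RPL2A* exon in rpl35aDi replicate 1, which is its Cy3 array alone. In rpl2aDi replicate 1 the arrays lie in batches B and C, whose dye differences for the *RPL2B* junction have opposite signs, so they need not cancel there.

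**Figure D4:**
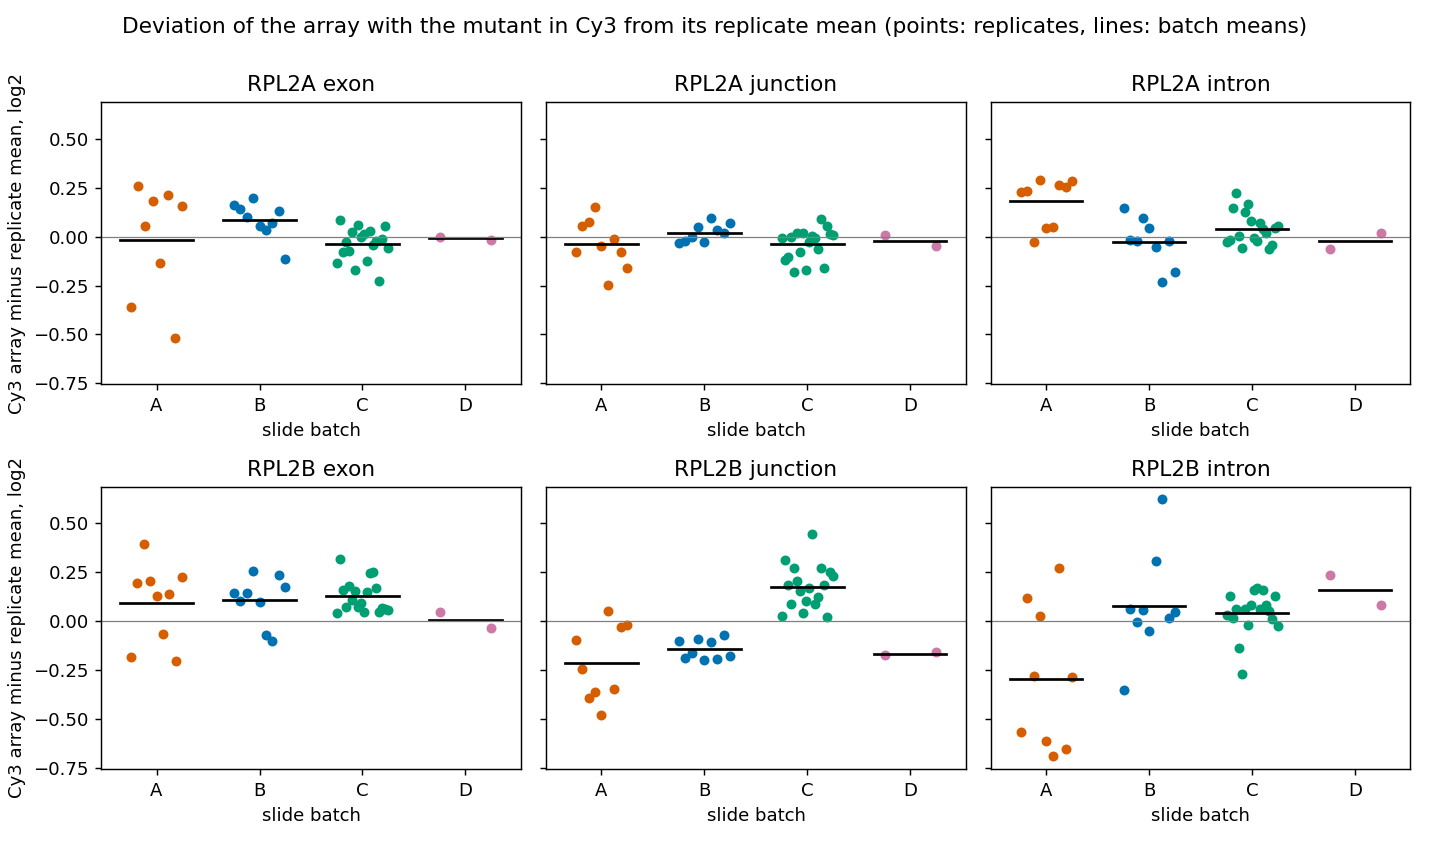
Deviation of the array with the mutant in Cy3 from the mean of its replicate (log2, vertical axis) for the 6 features, by slide batch A to D (horizontal axis); points are replicates and lines batch means, and the replicate of rpl2aDi whose arrays lie in batches B and C is left out. The *RPL2B* junction is below 0 in batches A, B and D with 1 exception and above 0 in all 18 replicates of batch C.

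The slide batches also bear on rpl2aDi, whose replicate 1 has its Cy3 array in batch B and its Cy5 array in batch C. The single array in batch B read 0.22 for the *RPL2A* exon and 0.27 for the *RPL2B* exon, and the 3 arrays in batch C averaged 0.08 and 0.01. For rpl2bDi the batch A arrays averaged 0.18 for the *RPL2A* exon and 0.02 for the *RPL2B* exon, and the 4 arrays in batch C averaged -0.02 and -0.03. The deleted introns were low in each batch, at -2.47 and -1.81 for *RPL2A* and at -3.15 and -3.45 for *RPL2B*. In the strains other than rpl2bDi, the *RPL2B* exon feature averaged -0.20 ± 0.16 (SD, n = 8) in batch A and was below 0 in 8 of 8 replicates, -0.07 ± 0.19 (n = 9) in batch B, -0.09 ± 0.09 (n = 16) in batch C and 0.23 ± 0.12 (n = 2) in batch D. The batches hold different strains.

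The features of other genes whose values went most closely with each *RPL2* feature were looked up over the 34 replicates of the 15 other strains, among 1419 features. For the *RPL2A* exon they were those of *MTR4* (r = 0.74) and *RNT1* (0.68), which encode an RNA helicase of nuclear RNA decay and a double-strand RNA endonuclease, and *PRP43* (0.68), which encodes a helicase of splicing and ribosome assembly. For the *RPL2A* junction they were the ribosomal protein genes *RPS8A* (0.60), *RPL16A* (0.59) and *RPS4B* (0.58). For the *RPL2B* exon they were *DBP5* (0.78), which encodes a helicase of mRNA export, the alpha-tubulin gene *TUB3* (0.74) and *RPL32* (0.72). For the *RPL2B* junction they were *RAD14* (0.84), *YSC84* (0.78) and, over 31 replicates, *TAD3* (0.75). The median r over all features lay between -0.004 and 0.02. The replicates share slide batches and dyes, so these values describe likeness on these arrays. Between the *RPL2* features themselves the highest r over the 34 replicates were 0.54 for the *RPL2B* exon and junction and 0.48 for the exons of both genes, while the *RPL2A* exon and junction had an r of 0.09.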

How the data were processed

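The arrays were 2-colour hybridizations of 17 intron deletion strains against wild type. The deposited values are log2 ratios per spot (mutant over wild type). The authors normalized them with marray and limma, following the Goulphar program. Background correction and spot filters were not given in the sources used here. Each array lacked values in 83 to 3552 of its 9216 spots, and array medians were -0.03 to 0.01. The number of arrays limits the precision. The first part of an array's name was taken as its slide batch, called A to D. The labels do not say what that number stands for. The 6 spots of a feature, placed by the printing layout, were averaged, and then the 2 dye-swapped arrays of a replicate. All 982 symbols matched the R64 gene table by identifier.

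Replicates were fitted with limma 3.58.1 (lmFit, eBayes, R 4.3.3), with 1 mean per strain tested against 0 over all 1536 features, Benjamini-Hochberg adjustment within each strain and a threshold of 0.05. Differences between features of a gene (724 over all genes), rpl2aDi minus rpl2bDi, and each strain against the others were fitted likewise. Confidence intervals are at 95% and unadjusted. The fit was tested on simulated data. Whether replicates came from separate cultures with wild-type RNA of their own is not stated, so p-values may measure technical spread. Alternatives were the median over spots, centred arrays, either dye alone, slide batch or replicate number as a block, each replicate of rpl2aDi and rpl2bDi left out, complete features, robust eBayes, both strains alone, and the arrays of rpl2aDi replicate 1 counted apart. The fit with slide batch as a block left out rpl2aDi replicate 1, whose arrays lie in different batches, so rpl2aDi kept a single replicate there. Named are all *RPL2A* and *RPL2B* features, the 3 features of other genes most correlated with each exon and junction feature (at least 30 replicates), and at most 4 members of each list with the smallest adjusted p in rpl2aDi or rpl2bDi. The lists were other RPL genes, RPS genes, and a-specific, alpha-specific and strain construction genes, the last of which has no feature. The chromosomal neighbours of both genes have none either. Members and lists were chosen with earlier results of these data known. Tables and figures were made with matplotlib 3.10.9, scipy 1.17.1, numpy 2.4.6 and pandas 2.3.3 under Python 3.11.15.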

Additional observations from a re-analysis of the deposited data

Results flagged for a closer look

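The arrays of each strain with 4 or more measured arrays were examined for a single array far from the others, and 8 of 78 sets of feature and strain held one. About 1 in 20 would be flagged if the arrays of a strain differed by chance alone. These arrays also differ by dye and slide batch, so that rate cannot serve as a comparison. For the *RPL2A* exon in rpl35aDi it was the Cy3 array of replicate 1 at -0.44, with the other 4 measured arrays between -0.05 and 0.04. For the *RPL2A* intron in rps8aDi it was the Cy5 array of replicate 1 at -0.49 (others 0.02 to 0.25), and for the *RPL2A* junction in the same strain the Cy3 array of replicate 1 at -0.11 (others 0.05 to 0.10). In rps21bDi the Cy3 array of replicate 2 was at -0.17 for the *RPL2A* junction, nearer to 0 than the others (-0.27 to -0.26). For the *RPL2B* intron the outlying arrays were in replicate 1 of rpl16aDi (Cy3, -0.74, others -0.04 to 0.08), rpl35aDi (Cy5, 0.86, others -0.52 to -0.01) and rps9bDi (Cy5, 0.51, others -0.16 to -0.06). For the *RPL2B* junction in rps9bDi it was the Cy3 array of replicate 3 at -0.39 (others -0.13 to 0.01). Of these arrays 7 rest on 6 measured spots and 1 on 5.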

How the results depend on the processing

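None of the exon and junction values of *RPL2A* and *RPL2B* in rpl2aDi and rpl2bDi passed the threshold under any alternative that could be fitted, and of the 100 combinations of feature and strain 1 was called, with the mutant in Cy5 only (*RPL2B* exon in rps9bDi, -0.46, against -0.036 in Cy3 only and -0.14 with slide batch as a block). Values near 0 changed sign, and the cause was not tested. The *RPL2B* exon in rpl2bDi was 0.22 with the mutant in Cy3 only, 0.016 with the median over spots and 0.0856 with slide batch as a block, and -0.0254 to 0.00434 without 1 replicate. In rpl2aDi it was -0.0288 with the mutant in Cy5 only. Its difference rpl2aDi minus rpl2bDi was -0.0382 with the mutant in Cy3 only and -0.0198 with slide batch as a block. That last fit leaves out rpl2aDi replicate 1, whose arrays lie in batches B and C. There rpl2aDi rests on a single replicate. The *RPL2A* exon in rpl2bDi was -0.022 to 0.0844 without 1 replicate. The *RPL2A* junction in rpl2bDi was 0.0124 with the mutant in Cy5 only and -0.041 to 0.0143 without 1 replicate, and the *RPL2B* junction there was 0.0187 with slide batch as a block. Intron minus exon of *RPL2B* in rpl2aDi was -0.00661 with the median over spots, -0.0292 with the mutant in Cy3 only and -0.0111 to 0.0612 without 1 replicate.

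Counts over all features moved more. In rpl2aDi 1 call became 2 with the median over spots or with the arrays of replicate 1 counted apart, 22 with the mutant in Cy3 only, 7 with slide batch as a block, and 1 to 10 without 1 replicate. It became 0 with complete features only or with the deleted introns left out, both of which remove the called feature. In rpl2bDi 31 calls became 147 with the mutant in Cy3 only, 127 with the mutant in Cy5 only and 10 of 211 complete features. They became 1 to 31 without 1 replicate of rpl2aDi or rpl2bDi. Complete features hold 1 of the 6 *RPL2* features, the *RPL2B* exon.

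Replicate numbers were not taken as a pairing in the main fit. Deviations of same-numbered replicates of different strains correlated with a mean r of 0.045 (67 of 192 over 0.1). For different numbers it was lower, at -0.0199 (76 of 372 over 0.1). Those of rpl2aDi and rpl2bDi correlated at -0.179 and -0.19. These values are not independent, since the 2 deviations of rpl2aDi mirror each other. With the replicate block the *RPL2A* exon in rpl2aDi was 0.12, the *RPL2B* exon in rpl2bDi -0.0086, and the counts stayed at 1 and 31, while those of rpl2aDi minus rpl2bDi went from 9 to 2 up and 2 down.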
